A study of Mus musculus with 6 samples.

Results

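Interferon-induced genes were followed in LSK cells of mouse bone marrow. These lack the surface markers of mature blood lineages, carry Sca1 and c-Kit, and include the haematopoietic stem cells and multipotent progenitors. The list holds 36 genes named for their induction by interferon and not for how they moved between the genotypes. Of these, 34 could be read, among 18193 genes in all, each from the brightest probe set that the array annotation gives to this gene alone. Isg15 was not read because its 1 probe set is shared with another gene, and Ifi44 has none in the annotation used.

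The study asked how the transcription factor Ikaros, encoded by Ikzf1, shapes gene expression in blood cell precursors, and compared wild-type (WT) with IkL/L cells on 6 Affymetrix arrays of the mouse genome, 3 per genotype. All mice were C57BL/6 of 6 to 7 weeks. A WT sample held the cells of 1 mouse and an IkL/L sample the pooled cells of 2, so pooling and genotype cannot be told apart. IkL/L mice are homozygous for a hypomorphic Ikzf1 allele, which lowers Ikaros in every cell that expresses it rather than removing it.

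Interferons are secreted proteins that cells release on meeting viruses and other microbes. Type I interferons bind a receptor of Ifnar1 and Ifnar2, whose kinases Jak1 and Tyk2 phosphorylate Stat2, which enters the nucleus with Irf9 in a complex that binds the interferon-stimulated response element of their target genes, whereas interferon gamma acts at the gamma-activated sequence. Haematopoietic stem cells respond to both, and Sca1, one of the surface proteins used to sort LSK cells, is itself induced by interferon.

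To show the DNA that the genes share, promoters were taken from RefSeq (build GRCm38.p6), each running from 250 bases before to 50 bases after an annotated start. Of the 36 genes, 28 had a promoter in the table used. The response element was searched on both strands as GAAA, 2 free bases and GAAA. Windows of 60 bases are printed for some of the genes with a match, none of them an RNA sensor or antigen processing gene. They are written 5′ to 3′ along the gene, with the matched bases in capitals (TTTC, 2 bases and TTTC is the element on the other strand). They lie for Ifit1 at chr19:34640769-34640828 (plus strand), for Ifit3 at chr19:34583365-34583424 (plus strand), for Oas3 at chr5:120777700-120777759 (minus strand), for Rsad2 at chr12:26456538-26456597 (minus strand), for Bst2 at chr8:71537565-71537624 (minus strand), for Stat2 at chr10:128270251-128270310 (plus strand), for Gbp2 at chr3:142620579-142620638 (plus strand) and for Isg15 at chr4:156200856-156200915 (minus strand).
Ifit1: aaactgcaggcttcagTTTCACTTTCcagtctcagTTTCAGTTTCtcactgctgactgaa
Ifit3: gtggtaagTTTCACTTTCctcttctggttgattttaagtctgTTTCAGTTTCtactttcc
Oas3: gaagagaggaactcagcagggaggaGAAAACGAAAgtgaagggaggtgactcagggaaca
Rsad2: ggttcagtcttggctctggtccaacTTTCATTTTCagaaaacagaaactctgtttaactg
Bst2: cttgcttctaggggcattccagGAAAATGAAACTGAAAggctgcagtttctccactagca
Stat2: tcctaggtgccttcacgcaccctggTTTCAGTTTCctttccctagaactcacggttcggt
Gbp2: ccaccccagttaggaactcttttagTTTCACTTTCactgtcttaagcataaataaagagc
Isg15: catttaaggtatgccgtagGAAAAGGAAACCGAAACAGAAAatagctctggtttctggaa

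The element occurred in 15 of the 28 genes (53.6%), against 3.99% of the 27025 genes with a promoter in the table. These 15 were Bst2, Ddx58, Eif2ak2, Gbp2, Gbp3, Ifih1, Ifit1, Ifit3, Igtp, Irgm1, Isg15, Oas1a, Oas3, Rsad2 and Stat2. Ifit1 and Ifit3 carried 2 matches each inside the printed windows, and Isg15 carried 3 that overlap. Of 23 matches, 20 were centred before the start and 18 within 150 bases before it, at a median of -61. With 1 free base in place of 2, the element occurred in 8 of the 28 genes (28.6%, against 3.7% of all genes), and 19 genes had either spacing. The gamma-activated sequence, TTC, 3 free bases and GAA, occurred in 10 genes (35.7%, against 9.55%), and 4 genes, Bst2, Eif2ak2, Igtp and Oas1a, had both it and the response element with 2 free bases. The core AGGAA, which the study names for Ikaros, occurred in 21 of the 28 genes (75%) and in 69.8% of all genes, so its share among these genes was near that of all genes. A match says only that these letters stand in the window.

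**Figure D1:**
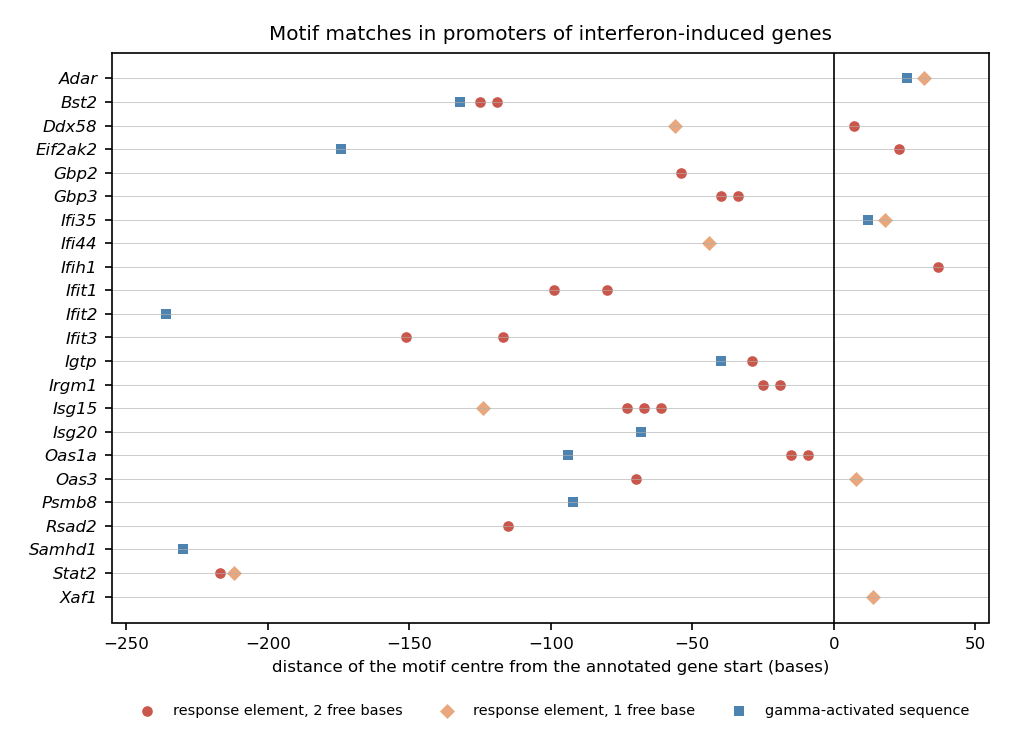
Positions of motif matches in the promoters of interferon-induced genes. The horizontal axis gives the distance of the motif centre from the annotated start in bases, each line is 1 gene, and colours separate the response element with 2 free bases, with 1 free base and the gamma-activated sequence; most response elements lie within 150 bases before the start.

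Ikzf1, the mutated gene, read 11.57, 11.59 and 11.44 on a log2 scale on the WT arrays and 10.77, 10.85 and 10.93 on the IkL/L arrays. The difference was -0.68 (limma, adjusted p = 0.0307). The adjusted p ran from 0.0436 to 0.157 when each array was left out in turn, and passed only without WT 3. The call was also lost under the replicate block (adjusted p = 0.118), and the second brightest Ikzf1 probe set gave -0.21 (adjusted p = 0.622). Over all probe sets WT 2 stood apart. It scored -52.7 on the leading principal component (39.3% of the variance), where the other WT arrays scored -18.6 and 3.6 and the IkL/L arrays 19.6 to 28.0, and it had the lowest of the 6 array weights (0.579). Kit, the gene of c-Kit, was at 11.21 to 11.50 on the WT arrays and at 11.07 to 11.35 on the IkL/L arrays. Ly6a, the gene of Sca1, was not read. In bulk samples, fewer cells of a type and less RNA per cell cannot be told apart, which holds for each difference below.

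None of the 34 interferon-induced genes differed between IkL/L and WT at an adjusted p under 0.05. Of all genes, 0.748% were called higher and 0.242% lower. Before adjustment, at a p under 0.05, limma gave 1 gene higher (Ly6e, 2.94% of the 34, against 5.83% of all genes) and 3 lower (Ifit3, Stat2 and Usp18, 8.82%, against 5.35%). The IkL/L arrays all lay above the WT arrays in 3 genes (Ly6e, Bst2 and Psmb9, 8.82%, against 7.62% of all genes) and all below in 4 (Ifit3, Stat2, Usp18 and Adar, 11.8%, against 9.59%). These shares were near the background.

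Differences were small, and most intervals were narrow enough to bound them. The log2 fold change was above 0 in 14 genes and below 0 in 20 (58.8%, against 55.5% of all genes). The 55.5% is also the background for the counts by role below. The median log2 fold change was -0.06, against -0.02 over all genes. The 95% interval lay inside 2-fold in either direction for 30 of the 34 genes and inside 1.5-fold for 18. Oas2, Ifit1, Oasl1 and Iigp1 were the 4 genes whose intervals reached 2-fold. The absolute log2 fold change had a median of 0.202 over the list and 0.108 over all genes, and in 23 of the 34 genes it was smaller than the larger of the 2 group SDs. Mx1 and Mx2, a pair of antiviral GTPases, were the only genes of the list without both group means above the array medians (4.79 to 4.88), and a level near or under these is not separated from background. In 10 of the 16 genes with over 1 probe set, the log2 fold changes of the probe sets differed in sign. For Dhx58, Tap1 and Xaf1 the probe sets of the other sign lay under the array medians. None of the 62 probe sets of the list passed in limma, with 7 at an unadjusted p under 0.05.

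**Figure D2:**
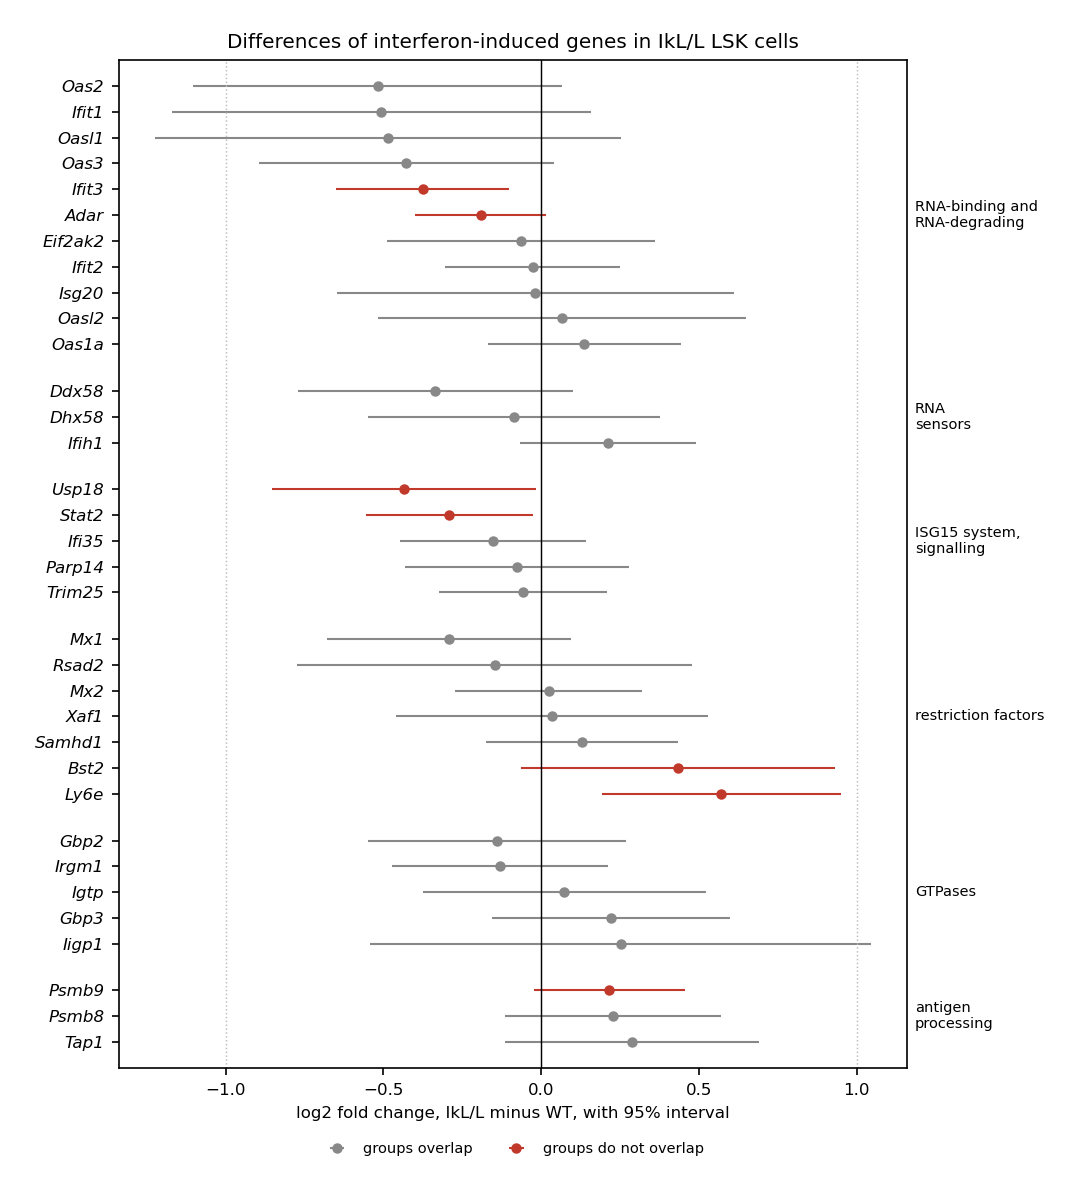
Log2 fold change (IkL/L minus WT) of the 34 genes, grouped by role, with the 95% interval from limma as the bar. Red marks the 7 genes whose groups do not overlap, dotted lines mark 2-fold, and no gene passed the adjusted threshold.

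Of the RNA-binding and RNA-degrading proteins, all 11 were read, 9 had a log2 fold change below 0 and 2 above, with a median of -0.19, and none passed the test. Ifit3, which works with Ifit1 in binding foreign RNA, was at 6.41, 6.34 and 6.26 on the WT arrays and at 6.10, 6.03 and 5.75 on the IkL/L arrays. Every IkL/L value lay under every WT value, by -0.38 on average (95% interval -0.65 to -0.10, adjusted p = 0.363). Ifit1, whose promoter holds the paired elements printed above, read 7.92, 7.69 and 7.24 in WT and 7.36, 7.51 and 6.45 in IkL/L. Its groups overlapped and only IkL/L 3 fell under all WT arrays (log2 fold change -0.51, interval -1.17 to 0.16, adjusted p = 0.684), and without that array the difference was -0.18. Ifit2, of the same family, had a log2 fold change of -0.03.

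The 2′-5′ oligoadenylate synthetases sense double-stranded RNA and activate RNase L. Oas2 had the most negative log2 fold change of the list, -0.52 (interval -1.10 to 0.07, adjusted p = 0.624), with 7.72, 7.30 and 7.63 in WT and 7.40, 7.28 and 6.41 in IkL/L. The first IkL/L array lay among the WT values, the second just under the lowest, and the third far under both. Without IkL/L 3 its difference was -0.21, less negative than that of Stat2 (-0.31). Oas3 read 6.18, 5.68 and 6.19 in WT and 5.58, 5.93 and 5.25 in IkL/L, and the groups overlapped (-0.43, interval -0.90 to 0.04, adjusted p = 0.612; -0.26 without IkL/L 3). Oas1a went the other way (0.14), as did the related Oasl2 (0.06), neither past the test. Oasl1, an inhibitor of Irf7 translation, had the widest spread between WT arrays of the list, with 7.59, 6.36 and 6.82 in WT (SD 0.624) and 6.61, 6.74 and 5.96 in IkL/L. WT 2 lay under 2 of the IkL/L arrays (-0.49, interval -1.23 to 0.25, adjusted p = 0.734). The difference was -0.15 without WT 1, -0.77 without WT 2 and -0.25 without IkL/L 3.

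Adar, which edits adenosine in double-stranded RNA, was among the tightest genes of the list. It read 8.63, 8.61 and 8.52 in WT and 8.39, 8.37 and 8.43 in IkL/L, so that the groups were apart by a small step (-0.19, interval -0.40 to 0.01, adjusted p = 0.602). Its second brightest probe set gave 0.023, with overlapping groups. Isg20, an exonuclease that degrades RNA, read 9.10, 8.13 and 8.64 in WT and 8.63, 8.99 and 8.19 in IkL/L (-0.02), and WT 2 was its lowest array. Eif2ak2, the kinase PKR that halts translation when it binds double-stranded RNA, had a log2 fold change of -0.06, with 0.43 in its second brightest probe set.

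The cytoplasmic RNA sensors did not move together. Ddx58, which encodes RIG-I, read 8.79, 8.38 and 8.32 in WT and 8.20, 8.46 and 7.83 in IkL/L, with overlapping groups (-0.34, interval -0.77 to 0.10, adjusted p = 0.678). Without WT 1 the difference was -0.19, and without IkL/L 3 it was -0.17. The second brightest Ddx58 probe set gave -0.43 (interval -0.75 to -0.11, adjusted p = 0.368 in limma), with all IkL/L arrays under all WT arrays. The third gave -0.05 and lay under the array medians. Ifih1, which encodes Mda5, read 10.29, 10.20 and 10.15 in WT and 10.55, 10.53 and 10.20 in IkL/L. Here 2 IkL/L arrays lay above WT and IkL/L 3 lay among the WT values (0.21, interval -0.07 to 0.49, adjusted p = 0.686), without which the difference was 0.32. Dhx58, the related helicase Lgp2, was at 7.71, 6.94 and 7.55 in WT and 7.37, 7.45 and 7.13 in IkL/L (-0.09), and the low WT 2 value made its WT range the wider one.

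In the ISG15 system and signalling, all 5 genes read had a log2 fold change below 0, with a median of -0.15 and none past the test. Isg15 is a ubiquitin-like protein, and Usp18 removes it from its targets and damps signalling at the type I receptor. Usp18 was flat over the WT arrays, at 7.64, 7.66 and 7.75, and stood at 7.59, 7.32 and 6.83 in IkL/L. The groups did not overlap, although IkL/L 1 lay close under WT (-0.44, interval -0.85 to -0.02, adjusted p = 0.547). Without IkL/L 3, the difference was -0.22. Stat2, the subunit of the type I factor that carries its activation domain, read 5.55, 5.42 and 5.19 in WT and 5.04, 5.11 and 5.14 in IkL/L (-0.29, interval -0.56 to -0.03, adjusted p = 0.509). The lowest WT array, WT 3, stood only just above the highest IkL/L array. The IkL/L mean of 5.10 was near the array medians (4.79 to 4.88), where a level is not separated from background. The second brightest probe set gave -0.12 and lay under these medians. Ifi35, Parp14 and Trim25 had log2 fold changes of -0.15, -0.08 and -0.06. Trim25 is the ubiquitin ligase that activates RIG-I, and its values lay between 11.74 and 12.08 on all arrays.

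The membrane and other restriction factors held the largest positive difference. Ly6e, a surface protein of the family of Sca1 that limits coronavirus entry, read 12.18, 11.68 and 12.32 in WT and 12.58, 12.61 and 12.70 in IkL/L. All IkL/L arrays lay above all WT arrays and close together (SD 0.07, against 0.34 in WT). The log2 fold change was 0.57 (interval 0.19 to 0.95, adjusted p = 0.297 in limma), or 1.49-fold. Read as the mean of its probe sets, it gave 0.53 and an adjusted p of 0.0409, which passes. Over all 16 alternative settings this was the only one in which a gene of the list passed, and 317 of 18193 genes passed in it. The second brightest Ly6e probe set gave 0.49 (adjusted p = 0.553 in limma), with overlapping groups. Without WT 2, the lowest array, the brightest gave 0.38 (adjusted p = 0.341).

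Bst2, or tetherin, which holds budding virus at the cell surface, followed the same order with 8.28, 7.55 and 8.46 in WT and 8.50, 8.49 and 8.60 in IkL/L. The gap between the groups was narrow and WT 2 stood far under the rest (0.43, interval -0.06 to 0.93, adjusted p = 0.633), and without WT 2 the difference was 0.16. Rsad2, or viperin, read 9.40, 8.97 and 9.13 in WT and 9.22, 9.49 and 8.36 in IkL/L. Its groups overlapped widely, and its log2 fold change of -0.15 became 0.18 without IkL/L 3. Mx1 and Mx2 had log2 fold changes of -0.29 and 0.02, Xaf1, a partner of the apoptosis inhibitor Xiap, 0.03, and Samhd1, which breaks down deoxynucleotides, 0.13.

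Immunity-related and guanylate-binding GTPases attack the vacuoles of intracellular microbes and are strongly induced by interferon gamma. Iigp1 read 8.19, 7.42 and 8.14 in WT and 8.28, 8.79 and 7.43 in IkL/L, so that the lowest arrays of both groups were nearly level and its interval was the widest of the list (0.25, -0.54 to 1.05, adjusted p = 0.881). Leaving out 1 array gave from -0.059 (without IkL/L 2) to 0.62 (without IkL/L 3). Igtp was nearly the same on all WT arrays, at 9.99, 9.99 and 10.01, and spread to 10.15, 10.45 and 9.61 in IkL/L (0.07). Its IkL/L values therefore lay on both sides of WT. Irgm1, Gbp2 and Gbp3 had log2 fold changes of -0.13, -0.14 and 0.22, with overlapping groups.

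All 3 antigen processing genes had a log2 fold change above 0, with a median of 0.23, and none passed the test. Psmb9, a catalytic subunit of the immunoproteasome that cuts peptides for MHC class I, read 10.67, 10.47 and 10.73 in WT and 10.84, 10.79 and 10.89 in IkL/L. The groups did not overlap (0.22, interval -0.02 to 0.46, adjusted p = 0.618). Psmb8, a further such subunit, was at 11.45, 11.01 and 11.52 in WT and 11.45, 11.54 and 11.67 in IkL/L (0.23). Tap1, a subunit of the transporter that carries these peptides, was at 9.98, 9.56 and 9.96 in WT and 9.99, 10.45 and 9.92 in IkL/L (0.29). WT 2 was the lowest array for all 3, and without it the differences were 0.14 for Psmb9, 0.069 for Psmb8 and 0.15 for Tap1. The second brightest probe sets of Psmb8 and Tap1 gave -0.0016 and -0.057, and that of Tap1 lay under the array medians, where a level is not separated from background.

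**Figure D3:**
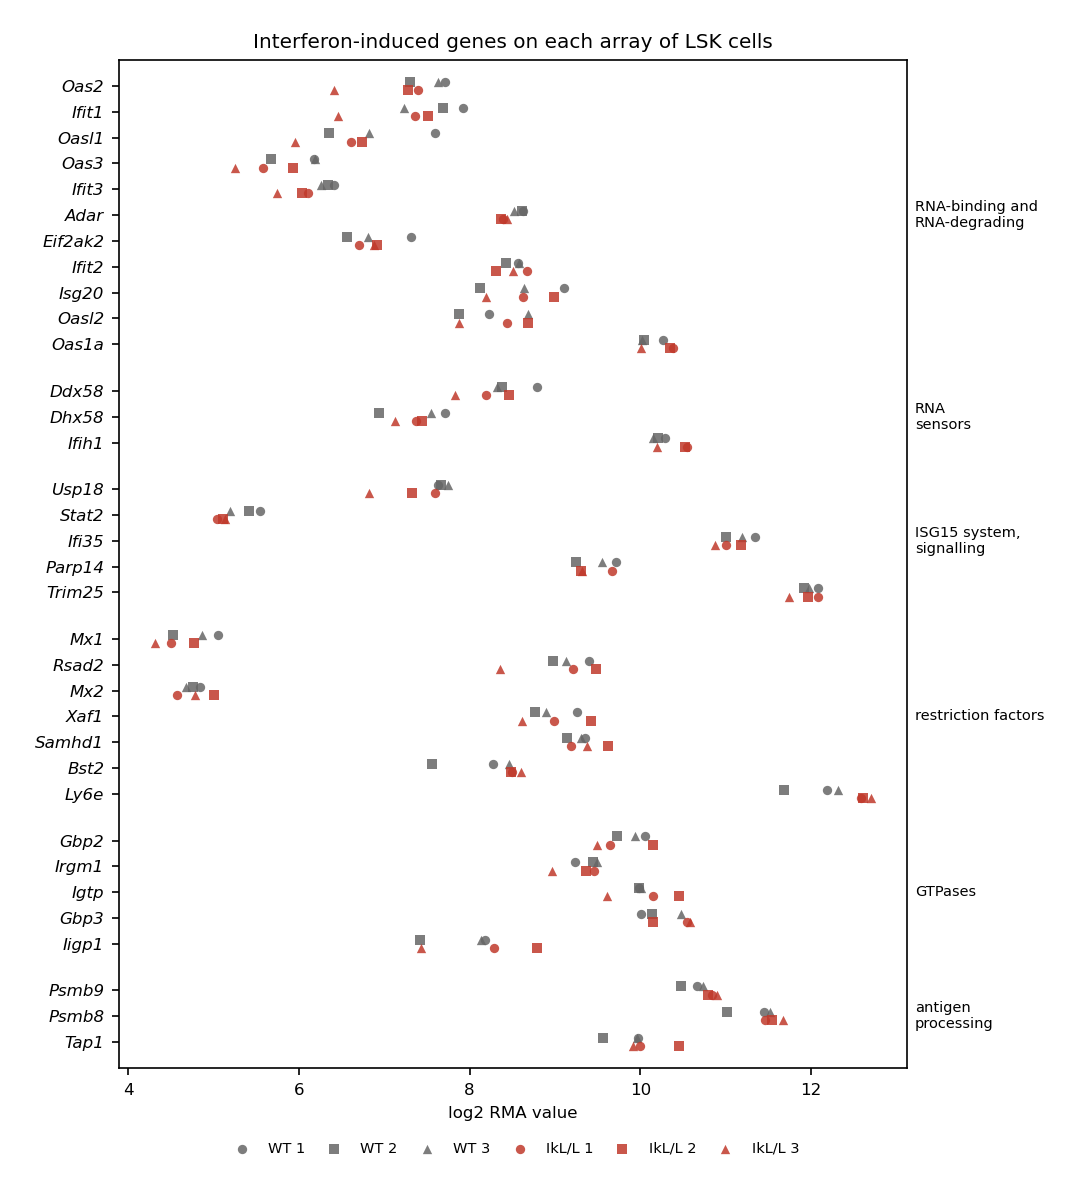
Log2 RMA values of the 34 genes on each of the 6 arrays, with WT in grey and IkL/L in red and one marker shape per replicate number, grouped by role. Within most genes the groups overlap, and IkL/L 3 (red triangles) and WT 2 (grey squares) often lie lowest.

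The spread between arrays was larger for these genes than for genes in general. The median SD was 0.227 in WT and 0.224 in IkL/L, against 0.135 and 0.125 over all genes and 0.150 and 0.135 over the 10959 genes whose group means both lay above the array medians. The largest SDs between WT arrays were those of Oasl1, Isg20, Bst2, Iigp1 and Dhx58. In both genotypes, 1 array stood low. IkL/L 3 was the lowest of the 6 arrays for 17 of the 34 genes (50%, against 18.5% of all genes), and WT 2 for 11 (32.4%, against 21%). Over the 10959 brighter genes these shares were 18.2% for IkL/L 3 and 27.4% for WT 2, so WT 2 stood closer to its background. WT 1 was the highest for 14 (41.2%, against 18.5%), and WT 2 for 0, although it was the highest for 23.8% of all genes.

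By role, the mean of the genes was lowest on WT 2 among the WT arrays in all 6 roles. Among the IkL/L arrays it was lowest on IkL/L 3 in 5 of the 6, the exception being antigen processing. Averaged over the 34 genes, the arrays read 8.79, 8.44 and 8.68 in WT and 8.64, 8.75 and 8.36 in IkL/L. The group means of these averages were 8.64 ± 0.18 and 8.58 ± 0.20 (SD, n = 3 each), so their difference of -0.06 was smaller than the spread within either group. Leaving out IkL/L 3, the median log2 fold change of the genes was 0.02; leaving out WT 2 it was -0.15; and leaving out both it was -0.03.

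The count of genes whose groups do not overlap moved with the arrays. The genes above WT numbered 8 without IkL/L 3 (23.5%, against 11.6% of all genes), in place of 3 (8.82%, against 7.62%). They numbered 5 without IkL/L 1 (14.7%, against 11.5%) and 5 without WT 3 (14.7%, against 13.5%). The genes below WT numbered 10 without WT 2 (29.4%, against 15%), in place of 4 (11.8%, against 9.59%). Without IkL/L 2 there were 8 (23.5%, against 15.4%). Groups of fewer arrays separate more readily, and the shares over all genes rose as well. They rose less than the list's share above WT without IkL/L 3 and its share below WT without WT 2 or IkL/L 2. On the other side, 4 genes lay below WT without IkL/L 3 (11.8%, against 15.4%). Without WT 2, 3 lay above (8.82%, against 11.3%), and without IkL/L 2, 4 did (11.8%, against 11.8%). The list lay lowest on WT 2 and IkL/L 3, so the counts without these arrays restate that spread.

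**Figure D4:**
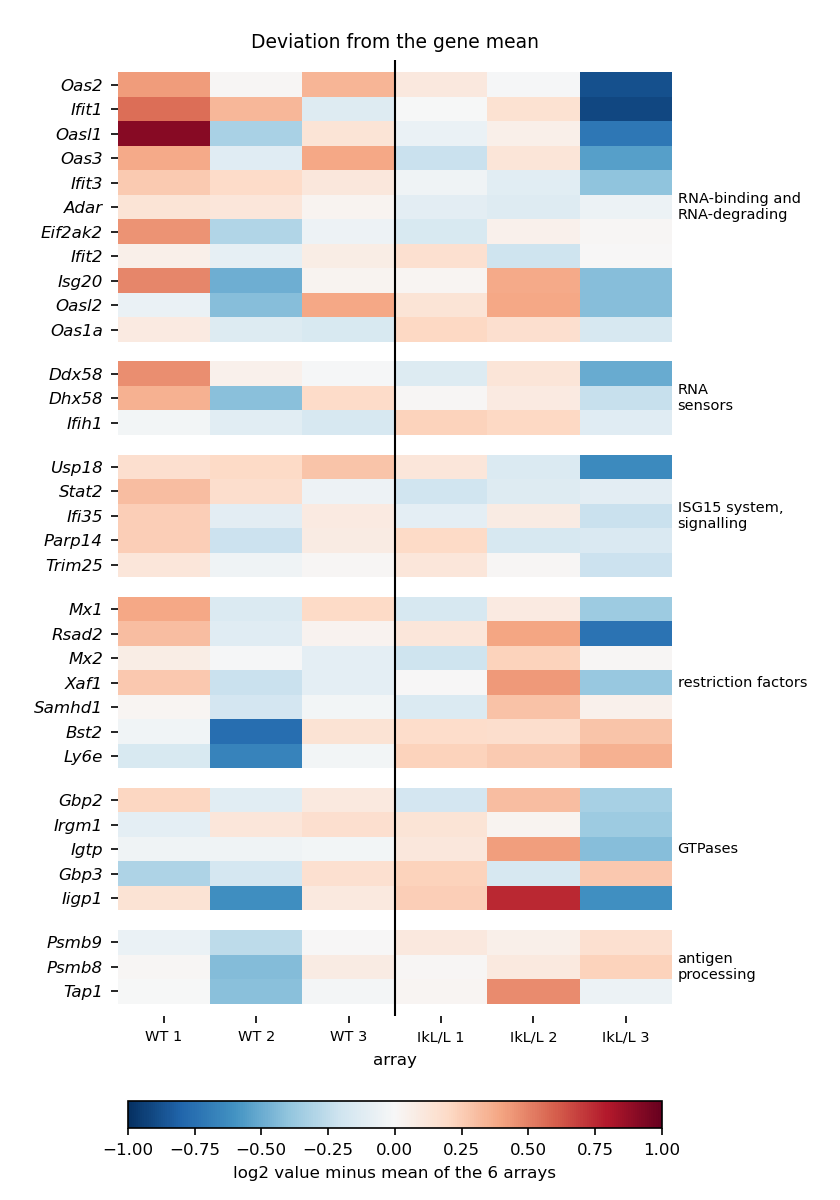
Deviation of each gene from its own mean over the 6 arrays, on a log2 scale from -1 (blue) to 1 (red), with genes in rows by role and arrays in columns. IkL/L 3 is blue in much of the upper rows and WT 2 in scattered rows that include all 3 antigen processing genes.

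The differences were also set against the promoters. The 14 read genes that carry the response element with 2 free bases had a median log2 fold change of -0.14, with 9 below 0. The 12 read genes whose promoters lack it, among them Adar, Ifi35 and Xaf1 with the 1-base form, had a median of 0.01, with 6 below 0. With 1 free base the medians were -0.24 with a match and 0.02 without. The order was reversed for the gamma-activated sequence (0.03 with, -0.14 without) and for AGGAA (-0.03 with, -0.13 without). None of these medians was tested.

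A wider list of interferon-induced genes gave no call either. Of 69 further genes, 55 were read and limma called none at an adjusted p under 0.05. At an unadjusted p under 0.05 it gave 7 on either side, 12.7% each, against 5.83% of all genes higher and 5.35% lower. The median log2 fold change was -0.002. Epsti1, first described in the stroma of breast tumours, was at 9.09, 8.95 and 8.97 in WT and 8.52, 8.57 and 8.52 in IkL/L (-0.47, adjusted p = 0.0952). The mean of its probe sets gave -0.11 (adjusted p = 0.796) and the second brightest probe set -0.17. Helz2, a helicase coactivator, read 9.11, 8.99 and 8.90 in WT and 8.55, 8.44 and 7.99 in IkL/L (-0.67, adjusted p = 0.163). Each IkL/L array of both genes lay under WT, and so did those of Rtp4, a chaperone of membrane receptors. Rtp4 read 10.47, 10.21 and 10.10 in WT and 9.67, 9.81 and 8.97 in IkL/L (-0.78, adjusted p = 0.286; -0.15 in its second brightest probe set). Slfn2, a regulator of T cell quiescence, read 6.63, 6.68 and 7.05 in WT and 8.06, 7.72 and 7.12 in IkL/L (0.85, adjusted p = 0.272). Its lowest IkL/L array, IkL/L 3, lay close above WT. Phf11d (0.74, adjusted p = 0.459) passed only without IkL/L 3, at 1.08 with an adjusted p of 0.0424, and with both WT 2 and IkL/L 3 left out.

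Of 40 genes of the pathway itself, 36 were read and limma called none, while an unadjusted p under 0.05 was reached by 3 on either side, 8.33% each, against 5.83% of all genes higher and 5.35% lower. The ligands Ifnb1, Ifna1, Ifna2, Ifna4 and Ifng all lay under the array medians, where a level is not separated from background. The receptor genes Ifnar1 and Ifnar2 had log2 fold changes of 0.13 and 0.07 and the kinases Jak1 and Tyk2 0.14 and -0.04. Of the interferon gamma receptor, Ifngr1 had 0.40 (interval 0.13 to 0.67, adjusted p = 0.308) with all IkL/L arrays above WT, and Ifngr2 had 0.69 (interval -0.18 to 1.57, adjusted p = 0.668) with overlapping groups. Irf9, the partner of Stat2, was at -0.21 and Irf7, which amplifies the response, at -0.38 (adjusted p = 0.661).

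The pathway gene nearest the threshold was Tlr7, an endosomal receptor of single-stranded RNA, which read 6.44, 5.93 and 6.10 in WT and 5.45, 5.19 and 5.19 in IkL/L. All IkL/L arrays lay under all WT arrays (-0.88, adjusted p = 0.058 in limma). Tlr7 passed with an intensity trend and robust moderation (0.0477), with array weights (0.0351) and as the mean of its probe sets (0.043). It did not pass with any 1 array left out (adjusted p from 0.0522 to 0.196 in limma). Its second brightest probe set gave -0.59 (adjusted p = 0.315). Socs3, which inhibits cytokine receptors, read 6.94, 7.72 and 8.16 in WT and 8.78, 9.23 and 8.54 in IkL/L (1.25, adjusted p = 0.193). Each IkL/L array lay above WT. Irf2, which competes at the response element, read 7.56, 7.53 and 7.24 in WT and 6.85, 6.74 and 7.10 in IkL/L (-0.55, adjusted p = 0.199). Tlr3, a receptor of double-stranded RNA, read 4.19, 4.30 and 4.13 in WT and 4.42, 4.70 and 4.64 in IkL/L (0.38, adjusted p = 0.304), with both means under the array medians.

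Other cell types that make or answer to interferon were read through their markers, and their part in the values above was not tested. The 7 plasmacytoid dendritic cell markers averaged 7.12 to 7.25 on the WT arrays and 7.01 to 7.23 on the IkL/L arrays. Limma called 0 of 7, with 1 on either side at an unadjusted p under 0.05 (14.3% each, against 5.83% and 5.35% of all genes). Ccr9 was at -1.47 (adjusted p = 0.208) with all IkL/L arrays under WT, and Irf8 at 0.77 (adjusted p = 0.100) with all above. Of the 7, 4 had a log2 fold change above 0 and 3 below. Siglech, a defining marker, lay under the array medians. The 5 NK markers read all lay under them. Of the 7 macrophage markers, C1qb, C1qc and Mertk lay under the array medians and the average ran from 4.46 to 5.03 in WT and from 4.17 to 4.87 in IkL/L. Within each genotype the averages of the macrophage, granulocyte and stem and progenitor markers were lowest on WT 2 and on IkL/L 3, the arrays on which the interferon-induced genes were lowest. For the NK and erythroid markers this held on IkL/L 3 only, and for the plasmacytoid dendritic markers and Kit on WT 2 only. It held on neither array for the T, B and stroma markers. B cell markers averaged 5.78 to 6.23 in IkL/L and 5.21 to 5.32 in WT, with 1 of 4 called by limma, Ms4a1 (2.38, adjusted p = 0.0165), while Pax5 had -0.22. The sort had depleted cells with B220, CD11b, Gr1 or Ter119 and gated out what remained of them. Stroma markers averaged 5.15 to 5.38 in IkL/L and 5.55 to 6.77 in WT, with 0 of 6 called and 3 at an unadjusted p under 0.05.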

How the data were processed

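Total RNA of sorted LSK cells (100 ng, 2-cycle labelling) was hybridised to 6 Affymetrix arrays. The deposited values are log2 signals that the authors obtained with RMA (no version given) and R 2.8, per the submitters' processing notes. The study's methods describe normalization together with thymocyte arrays, and whether these values stem from it is not given in the sources used here. Quantile normalization removes changes in total RNA, and RMA gives no detection call. No column was left unmapped.

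The limma package 3.58.1 (R 4.3.3; lmFit, eBayes, genotype only, two-sided) was run on all 45037 probe sets, with Benjamini-Hochberg adjustment over all of them and a threshold of 0.05. A gene was read from its brightest single-gene probe set, with symbols updated through RefSeq (GRCm38.p6). Of the annotated probe sets 34945 have 1 gene and 932 several, and 9160 are unlisted. P-values rest on the spread between 3 samples a group, moderated over all probe sets. That spread is between single mice in WT and between pools of 2 mice in IkL/L, so the SDs of the genotypes are not alike in kind. The fit was tested on simulated data.

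The members, the lists and the alternatives were chosen with earlier results of these data known. Array values are given for the 12 members of largest moderated t, for the 5 of largest WT SD and for the 4 genes of smallest p in each other list. Rsad2, Igtp, Psmb8 and Tap1 were given array by array after their values had been seen, and Phf11d, Ifngr1, Ifngr2, Ms4a1 and Pax5 were named for the same reason. The single plasmacytoid dendritic, stem and progenitor and erythroid markers were likewise named with their values known. Same-numbered arrays deviated with correlations of 0.0084, -0.112 and 0.0789, within the range of differently numbered arrays (-0.129 to 0.120). With 3 arrays a group, these values cannot tell whether same-numbered samples were handled together. Alternatives were a second quantile normalization, centring, 2 filters on dim probe sets, moderation with a trend, array weights, a replicate block, other ways to read a gene and arrays left out.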

Additional observations from a re-analysis of the deposited data

How the results depend on the processing

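With 3 arrays a group, the number of arrays limits the precision: the SE of a log2 fold change of the 34 genes ran from 0.0893 to 0.344. No detection call bounds dim genes such as Mx1, Mx2 and Stat2. Over 16 other settings, the count of genes called higher was 1 when the probe sets of a gene were averaged (Ly6e) and 0 in the others. None was called lower. With averaged probe sets 317 of 18193 genes were called in all, higher or lower, against 251 of 45037 probe sets in the main fit. The replicate block gave 0 higher and 0 lower and gave 143 calls over all probe sets, against 251 without it, and it changed no call of these genes. Leaving out WT 2 and IkL/L 3 together was chosen after the values had been seen.

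Genes whose groups do not overlap numbered 0 higher and 2 lower in the second brightest probe set (16 genes have one; 0% and 12.5%, against 6.16% and 8.3% of all genes) and 8 and 10 with both arrays left out (23.5% and 29.4%, against 16.8% and 22.8%). Leaving out 1 array gave 3 to 8 higher (8.82% to 23.5%, against 10.9% to 13.5% of all genes). It gave 4 to 10 lower (11.8% to 29.4%, against 14.9% to 17.3%). Of the further interferon-induced genes, 1 rose with both arrays left out and 0 to 1 with 1 array left out. Of the pathway genes, 1 fell (Tlr7) with the trend and robust moderation, with array weights and with the mean of probe sets. The response element with 1 free base was in 8 promoters. Where these differ from the values above, the cause was not tested, other than that fewer arrays or genes were used.

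The sign of the log2 fold change held in 16 genes and turned in 18, none of them called. It turned with array weights for Mx2 (-0.043) and Xaf1 (-0.042), and with both arrays out for Rsad2 (0.087) and Irgm1 (0.045). With the mean of probe sets it turned for Xaf1 (-0.0011), Eif2ak2 (0.14), Trim25 (0.0040) and Samhd1 (-0.038). In the second probe set it turned for Dhx58 (0.20), Xaf1 (-0.037), Gbp2 (0.0025), Eif2ak2 (0.43), Trim25 (0.0026), Parp14 (0.046), Adar (0.023), Samhd1 (-0.18), Psmb8 (-0.0016) and Tap1 (-0.057). Those of Dhx58, Xaf1 and Tap1 lay under the array medians. Leaving out 1 array gave -0.12 to 0.069 for Ifit2, -0.27 to 0.22 for Isg20, -0.13 to 0.29 for Oasl2, -0.086 to 0.13 for Mx2, -0.38 to 0.18 for Rsad2, -0.32 to 0.070 for Dhx58, -0.17 to 0.23 for Xaf1, -0.059 to 0.62 for Iigp1, -0.12 to 0.30 for Igtp, -0.23 to 0.016 for Irgm1, -0.23 to 0.15 for Eif2ak2, -0.13 to 0.035 for Trim25 and -0.20 to 0.027 for Parp14.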
